A study of Mus musculus with 2 samples.

Results

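Broad domains of H3K79me2, the dimethylated form of lysine 79 of histone H3, were examined on the 19 autosomes of mouse embryonic fibroblasts. They are 819 stretches of at least 50 kb, out of 27892 marked regions of 2 kb or wider and 59080 when single bins of 1 kb are counted. The domains were chosen by read counts in 1 library only, replicate 2, as runs of 1 kb bins with at least 12 distinct reads, joined over gaps of up to 2 bins below that count. Replicate 1 took no part in the choice, so level, slope and inner dips were tested there. Positions refer to the mouse build mm8, counted from 1.

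Both libraries belong to the same group, fibroblasts grown from mouse embryos, precipitated with an antibody to H3K79me2. The labels name no strain, genotype, sex or embryonic age, and separate cultures are not stated. They differ in flow cell and in the gel range cut, 150 to 350 bp for replicate 1 and 150 to 300 bp for replicate 2, so that any spread between them may be technical. No input library was analysed here, and the cell type could not be checked against marker genes, because positions were not tied to genes.

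DOT1L is the enzyme that methylates lysine 79, a residue on the globular face of the nucleosome. It travels with factors that help RNA polymerase II to elongate, and the mark is known to lie over transcribed genes, strongest soon after the start site and fading along the body of the gene. Unusually wide H3K79me2 is known from genes bound by fusions of the MLL protein in leukaemia.

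Replicate 1 held 16472599 distinct autosomal reads and replicate 2 held 12862946. Background, the median density of 10 kb bins with reads, was 6.7 reads per kb in replicate 1 and 3.3 in replicate 2. Levels below are folds over that background, and bins without a read in either library, 41 inside the domains, were left out. Domains held 6.56% of the reads of replicate 1 (exact 95% binomial interval 6.55 to 6.57) and 15.95% (15.93 to 15.97) was the share in replicate 2. Intervals and tests cover counting error only.

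The domains covered 68.56 Mb, which was 2.85% of the autosomal span and 23.4% of the length of all regions of 2 kb or wider. Widths ran from 50 to 333 kb with a median of 70 kb and quartiles of 58 and 94 kb. Widths of at least 100 kb occurred in 170 domains and of at least 200 kb in 22. Few were unbroken: the median domain had 8 gaps, 12.4% of its bins were below 12 reads in replicate 2, and 3 domains had no gap. The longest uninterrupted run had a median of 25 kb and a maximum of 225 kb, and in 138 domains it alone reached 50 kb. These values belong to the library and the count that made the choice, so they describe the rule as well as the chromatin.

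At the width limit itself, domains and the regions just under it had like levels in replicate 1. Regions of 49 kb numbered 31, with a median fold of 2.23 in replicate 1 and 8.78 in replicate 2. Regions of 50 kb numbered 39, with 2.23 and 7.28. Just inside the limit were chr1:178623001-178673000, whose folds were 3.20 in replicate 1 and 7.41 in replicate 2, and chr1:184309001-184359000, with 2.58 and 12.7. Just outside it, chr2:22783001-22832000 had 2.69-fold and 6.36-fold, and chr2:38333001-38382000 had 2.69-fold and 14.3-fold.

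Chromosome 11 held the most domains for its length, 70 or 58.9 per 100 Mb, against 34.1 over all autosomes. Chromosome 8 followed with 43.4 per 100 Mb and chromosome 14 was the sparsest, with 25 domains or 20.7 per 100 Mb. Set against the regions of 10 kb or wider on the same chromosome, the order changed. Broad domains were then 7.78 per 100 such regions on chromosome 9 and 12.2 on chromosome 8, with 11.1 on chromosome 11 and 9.40 on chromosome 14. Median fold in replicate 1 lay between 1.97 (chromosome 9) and 2.54 (chromosome 14). Neighbouring domains were 1122.5 kb apart at the median, 42 of 800 neighbouring pairs lay within 10 kb, and the greatest distance was 37.9 Mb.

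In replicate 1, which had no part in the choice, every one of the 819 domains stood above background (87.4% of all regions of 2 kb or wider did). The same rule was also applied to replicate 1, with the count scaled to its background, 24 reads per bin. It gave only 9 domains of 50 kb or more, all overlapping broad domains, of which they touch 1.099%. At the median 12.2% of the bins of a broad domain reached that count in replicate 1. The number 9 therefore holds for this count, and what a lower count would find in replicate 1 is not shown. The median over the 819 was 2.21-fold, with 5th and 95th percentiles of 1.45 and 3.49, and 540 domains reached 2-fold, 65.9% against 19.4% of all regions. Replicate 2 showed the same domains at a median of 8.33-fold, a value its own choice favours. The fold was higher in replicate 2 in all 819, by 3.83 times at the median. Folds of the libraries followed each other over domains with Pearson's r of 0.56 on the log2 scale and Spearman's rho of 0.55. Wider domains were scarcely higher, with a rho of 0.11 between width and fold in replicate 1. Domains are not replicates and share placeable sequence, so these correlations carry no p.

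Narrower regions made by the same counting were lower in replicate 1. Median fold was 1.75 in the 7061 regions of 10 to 49 kb, 1.37 in the 11188 regions of 4 to 9 kb and 1.29 in the 8824 regions of 2 to 3 kb. In replicate 2 the medians were 5.76, 3.88 and 4.24. The difference between the width classes was not tested, since regions of 1 library are not replicates.

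Most domains were above the unmarked bins beside them in replicate 1. Density inside was compared with that of bins below 12 reads within 25 kb of either edge, by an exact two-sided binomial test with Benjamini-Hochberg adjustment over 27872 regions. A region was called above its flanks at an adjusted p below 0.01 and a ratio of at least 1.5. Of 813 domains with enough flank, 645 (79.3%) were called, against 23.7% of all regions tested, and none was called lower by the same ratio. Wide regions hold more reads, from 402 to 11041 in these domains, so the test reaches them more easily. The ratio itself, which does not depend on width in that way, was 1.97 at the median in the domains, 1.51 in regions of 10 to 49 kb and 1.17 in those of 4 to 9 kb. Flanks of the domains were at 1.14-fold at the median. Such flanks leave out what replicate 2 marked. With all bins within 25 kb taken, a setting chosen after seeing the data, 556 of 819 domains (67.9%) were called, against 19.2% of all regions, 3 were called lower, and the median ratio was 1.77.

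**Figure D1:**
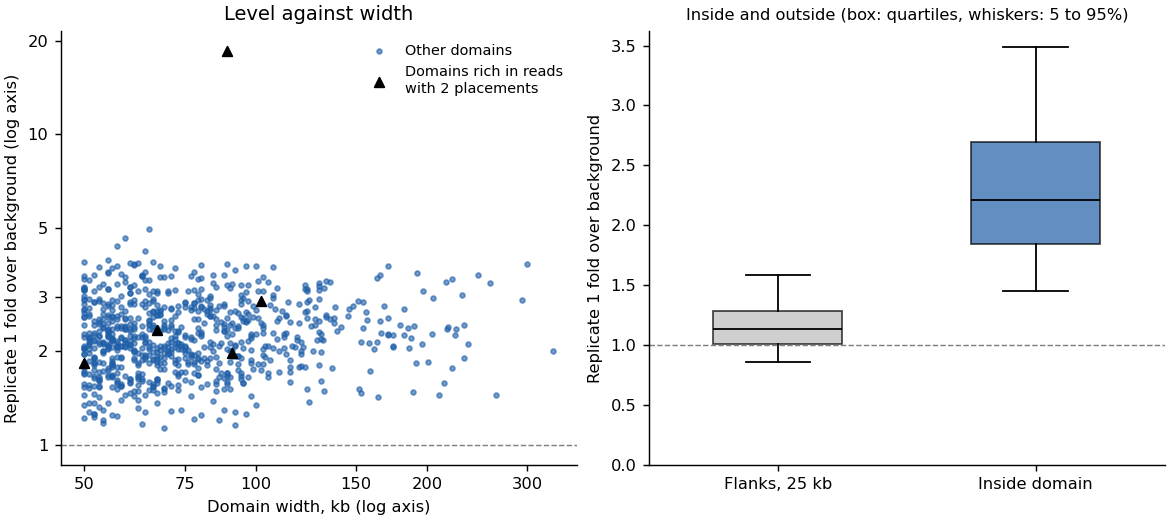
Left, fold over background in replicate 1 of the 819 broad domains against their width in kb, both on log axes, with the 5 domains rich in reads with 2 placements as triangles. Right, fold over background in replicate 1 in the flanks and inside the domains (box, quartiles; whiskers, 5th to 95th percentile). Median levels lie between 2.13-fold and 2.41-fold in each width group, flanks around 1.14-fold, and 1 domain stands apart at 18.5-fold.

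The 5 widest domains ranged from 258 to 333 kb and differed widely in level. The widest, chr6:99161001-99494000, held 4474 reads of replicate 1 and stood at 2.01-fold (exact 95% Poisson interval 1.95 to 2.06), with 8.34-fold in replicate 2. Of its bins 95.2% were above background in replicate 1, and its density was 1.63 times that of unmarked bins beside it (adjusted p = 1.48e-14, exact binomial test). With all bins beside it the ratio was 1.37, short of a call, since the 25 kb to its left stood at 1.87-fold in replicate 1 and those to its right at 1.05-fold. Replicate 1 therefore showed no drop at the left edge. Its level was nearly even in steps of 20% of its width, though its highest 5 kb window was 3.20 times its lowest in replicate 1. From the left, the steps of replicate 1 read 1.90, 1.88, 1.81, 1.95 and 2.497-fold. Only the last step, next to the right edge, lay higher, and replicate 2 had its highest step there too, at 11.1-fold against 7.10 to 8.10.

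Second in width, chr16:24306001-24605000 (299 kb) was among the stronger domains, at 3.82-fold in replicate 1 (3.74 to 3.91) and 10.8-fold in replicate 2. It fell gradually from the left, where replicate 1 read 4.36 and 4.44-fold in the opening steps of 20%, to 2.98-fold at the right, and replicate 2 went from 14.9 to 6.43-fold. The ratio of its sides was 1.37 in replicate 1, short of the 1.5 required to call a slope (adjusted p = 2.80e-40, exact binomial test).

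Next in width, chr3:27610001-27904000 (294 kb) was a long gradient, at 2.93-fold in replicate 1 (2.86 to 3.01) and 12.1-fold in replicate 2. Replicate 1 rose along it from 1.43 through 1.82, 2.97 and 3.51 to 4.96-fold in steps of 20%. Replicate 2 rose through the same steps, from 5.63 to 20.1-fold. Both libraries therefore climbed at every step, and the right side was 2.22 times the left in replicate 1 and 2.25 times in replicate 2 (adjusted p = 4.11e-183 in replicate 1, exact binomial test).

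By contrast chr8:123098001-123362000 (264 kb) was wide and faint. It had 1.44-fold in replicate 1 (1.39 to 1.501), with 77.7% of its bins above background, and 7.10-fold in replicate 2. At 1.42 times its unmarked flanks it missed the ratio for a call (adjusted p = 0.000103, exact binomial test). Taking every bin within 25 kb, marked ones included, lowered the ratio to 0.940 (adjusted p = 0.432, exact binomial test). By that measure replicate 1 did not set the domain above its surroundings. The right side exceeded the domain itself in both libraries, reading 1.96-fold (replicate 1) and 9.37-fold (replicate 2). The left side was lower than the domain, reading 0.982-fold and 2.63-fold. The fifth, chr15:52920001-53178000 (258 kb), had 3.32-fold (3.24 to 3.41) and 9.71-fold, was 2.24 times its flanks, and had 99.2% of its bins above background in replicate 1.

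Apart from 1 exception, the highest domains in replicate 1 reached no more than 4.95-fold. That exception, chr11:3025001-3114000, is rich in reads with 2 placements, which were at 60.3 times their autosomal density in replicate 1 and 81.4 times in replicate 2. It had 18.5-fold in replicate 1 (18.2 to 18.9) and 22.8-fold in replicate 2, and the part of such sequence in that level was not tested. Next came chr1:90057001-90122000, at 4.95-fold (4.74 to 5.16) and 8.12-fold, beside flanks that were themselves at 18.9 reads per kb in replicate 1. Its ratio to the flanks was 1.75, and 1.48 with all bins beside it, where the call was lost. Then followed chr14:6602001-6661000, at 4.63-fold (4.42 to 4.85) and 15.3-fold, whose flanks held 7.34 reads per kb.

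At the other end, 3 domains were barely above background in replicate 1. The lowest, chr1:120724001-120793000, held 526 reads there, or 1.14-fold (1.04 to 1.24), with 0.942 times the density of its flanks (adjusted p = 0.722, exact binomial test), and 4.29-fold in replicate 2. In chr5:139618001-139710000 the levels were 1.16-fold (1.08 to 1.25) and 5.18-fold, and in chr8:124067001-124130000 they were 1.17-fold (1.07 to 1.28) and 4.30-fold. Between 21.7% and 36.2% of the bins of these 3 domains were below 12 reads in replicate 2. Their extent thus rests on bins near the chosen count.

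A domain was often higher at one end than at the other, and the libraries mostly put the higher end on the same side. To measure slope, reads in the left 50% of the width were set against those in the right 50% by an exact two-sided binomial test, adjusted over 7880 regions of 10 kb or wider. A slope was called in replicate 1 at an adjusted p below 0.01 and sides that differed by at least 1.5 times. It was called in 256 domains (31.3%), against 23.8% of all regions tested, which on the whole hold fewer reads and so reach a call less easily. With background subtracted before the ratio of 1.5 the share was 56.7%, and with no gap joined it was 16.4% of 146 domains. The 256 were nearly balanced between 123 higher on the left and 133 higher on the right. The sides differed by a log2 ratio of 0.40 at the median in replicate 1 and 0.47 in replicate 2. In 134 domains they lay within 1.1 times of each other in replicate 1.

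The same end was higher in both libraries in 731 domains, 89.3% (exact 95% interval 86.9 to 91.3), against 75.4% of all regions of 10 kb or wider. Narrower regions hold fewer reads on the whole, so counting error bears more on their higher end. Among the broad domains the share was 84.7% at 50 to 59 kb, 100% at 100 to 149 kb and 94.9% at 150 kb or more. For the 256 slopes called in replicate 1 the same end was higher in 253 (98.8%, 96.6 to 99.8), and no such share is given for narrower regions. The other 88 domains, with opposite ends, had a median log2 ratio of 0.12 between their sides in replicate 1, at most 0.68, and 3 of them were called slopes there. Over all domains the log2 ratios of the libraries had a Pearson's r of 0.90 and a Spearman's rho of 0.90. Both libraries read the same sequence, so placeability enters both.

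**Figure D2:**
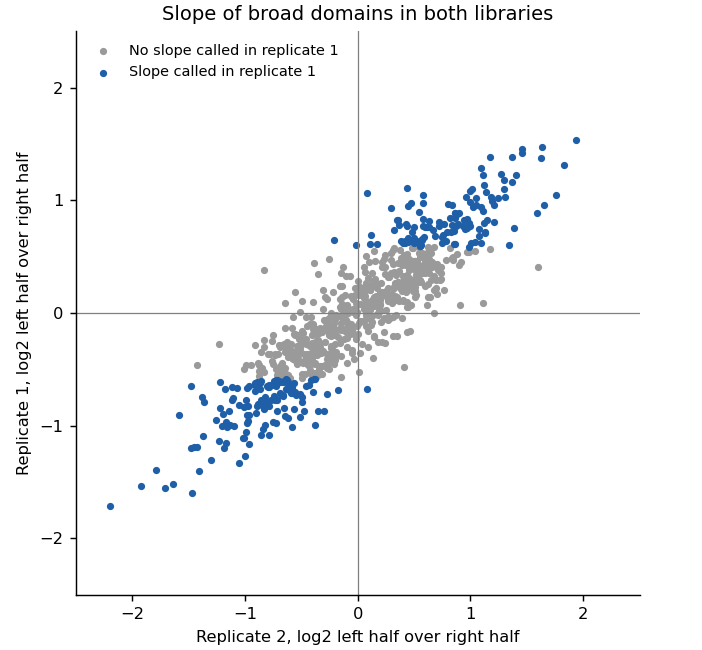
Log2 ratio of the density in the left 50% over the right 50% of each broad domain, replicate 1 (y axis) against replicate 2 (x axis), with 1 point per domain. The 256 domains with a slope called in replicate 1 are blue, and 253 of them lie in the quadrants where both libraries have the same higher side.

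Among slopes that rose to the right, chr15:72916001-73015000 (99 kb) had the largest, with 8.80 reads per kb on its left and 28.8 on its right in replicate 1 (log2 left over right -1.71, adjusted p = 8.78e-118, exact binomial test), and 17.2 and 78.8 in replicate 2. Its shape was a shelf and a block more than a ramp. Replicate 1 read 1.42 and 1.13-fold over the first 40% of its width, then 2.56, 4.58 and 4.39-fold. For chr8:125351001-125439000 (88 kb) the sides were 7.73 and 23.4 reads per kb in replicate 1 and 25.9 and 71.9 in replicate 2. For chr5:121382001-121453000 (71 kb) they were 6.77 and 19.9, and 14.2 and 46.5.

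Toward the left the largest slope was that of chr2:31972001-32059000 (87 kb), with 25 reads per kb on the left and 8.60 on the right in replicate 1 (log2 ratio 1.54, adjusted p = 7.58e-77, exact binomial test), and 72.1 and 18.9 in replicate 2. Replicate 1 stepped down from 4.31 and 3.79-fold to 1.69, 1.42 and 1.16-fold from left to right. In chr17:24277001-24337000 (60 kb) the sides were 20.7 and 7.47 reads per kb, and in chr17:28416001-28480000 (64 kb) 21.7 and 7.91, in replicate 1. The right side of these 3 domains was close to the background of 6.7 reads per kb in replicate 1, while replicate 2 still counted it as marked, at 13.8 to 18.9 reads per kb against its background of 3.3.

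**Figure D3:**
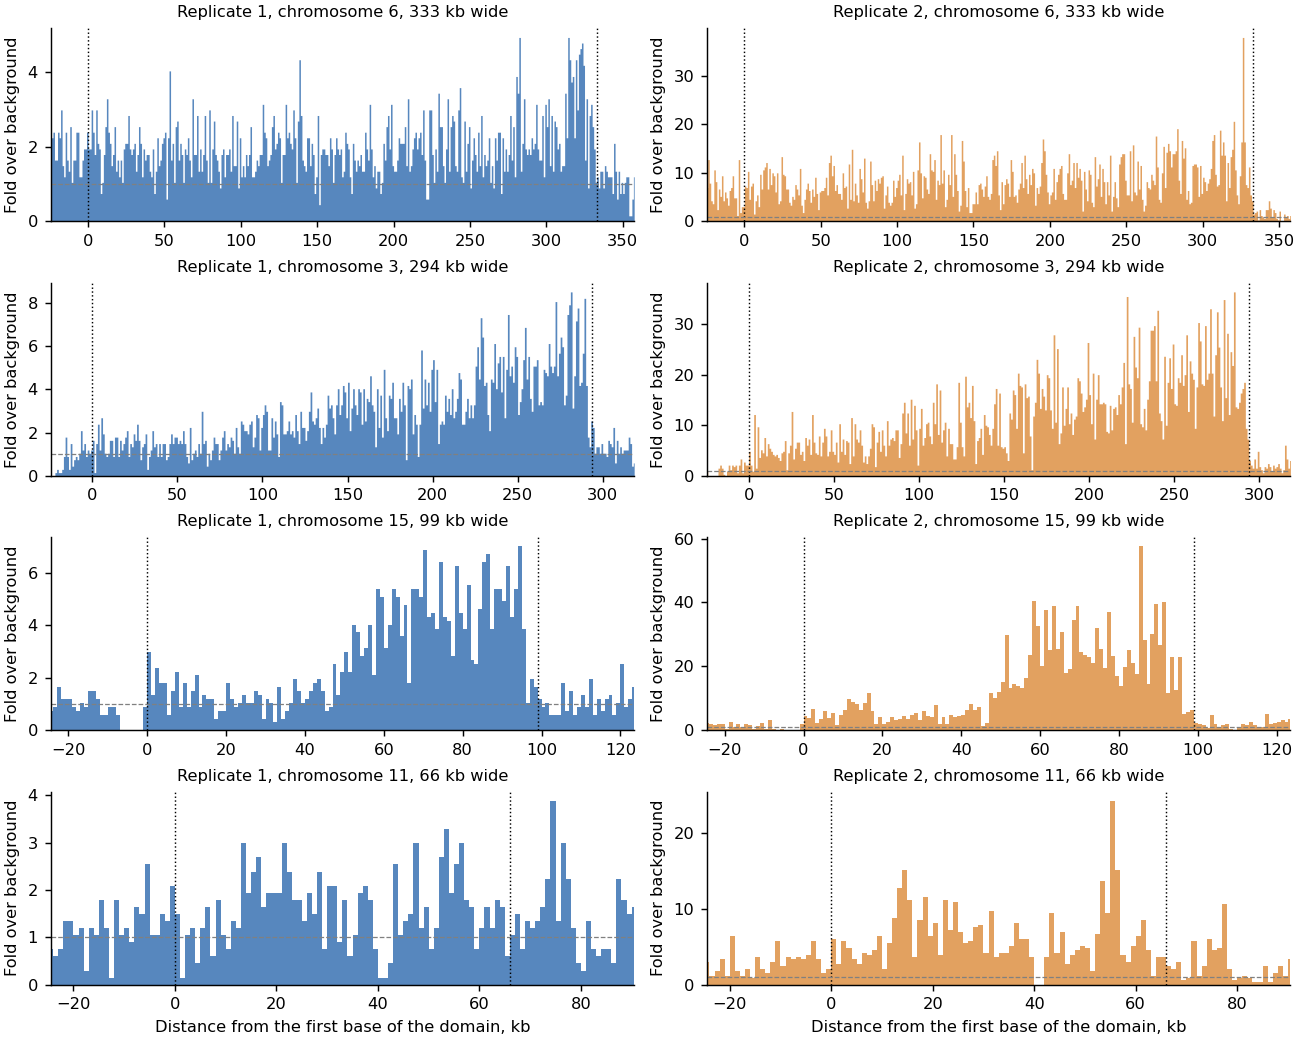
Fold over background in 1 kb bins along 4 broad domains and 25 kb to either side, replicate 1 on the left and replicate 2 on the right, with dotted lines at the edges and a dashed line at background. At the top is the widest domain (333 kb), nearly even in steps of 20% of its width except the last. Below it is the widest with a called slope, rising along 294 kb. The steepest comes next, with a low shelf and a high block. At the bottom is a domain of 66 kb with a narrow dip.

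Shape was then read in replicate 1 with each domain turned so that the side with more reads in replicate 2 came first. That end is called the higher end. Such turning alone puts the stronger side first wherever the libraries match, while the form of the profile within it was free. For the 814 domains outside the 5 rich in reads with 2 placements, replicate 1 stood at 1.25-fold in the last 5 kb before the higher end. Inside, it stood at 2.36-fold over the first 5 kb, 3.01-fold from 5 to 10 kb, 2.81-fold from 10 to 20 kb, 2.56-fold from 20 to 30 kb and 2.29-fold from 30 to 50 kb. The rise was thus complete within 10 kb of the edge, and the fall that followed was slow.

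The lower end had no such rise. Replicate 1 was at 1.31-fold in the 5 kb outside it, 1.57-fold in the 5 kb inside, 1.78-fold from 5 to 10 kb, 1.90-fold from 10 to 20 kb and 2.42-fold from 30 to 50 kb inside. Levels outside the ends were alike, at 1.33-fold before the higher and 1.38-fold beyond the lower end at 20 to 40 kb. In steps of 10% of the width from the higher end, replicate 1 went from 2.66-fold in the opening step to 2.90-fold in the next and then fell at each step to 1.64-fold.

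**Figure D4:**
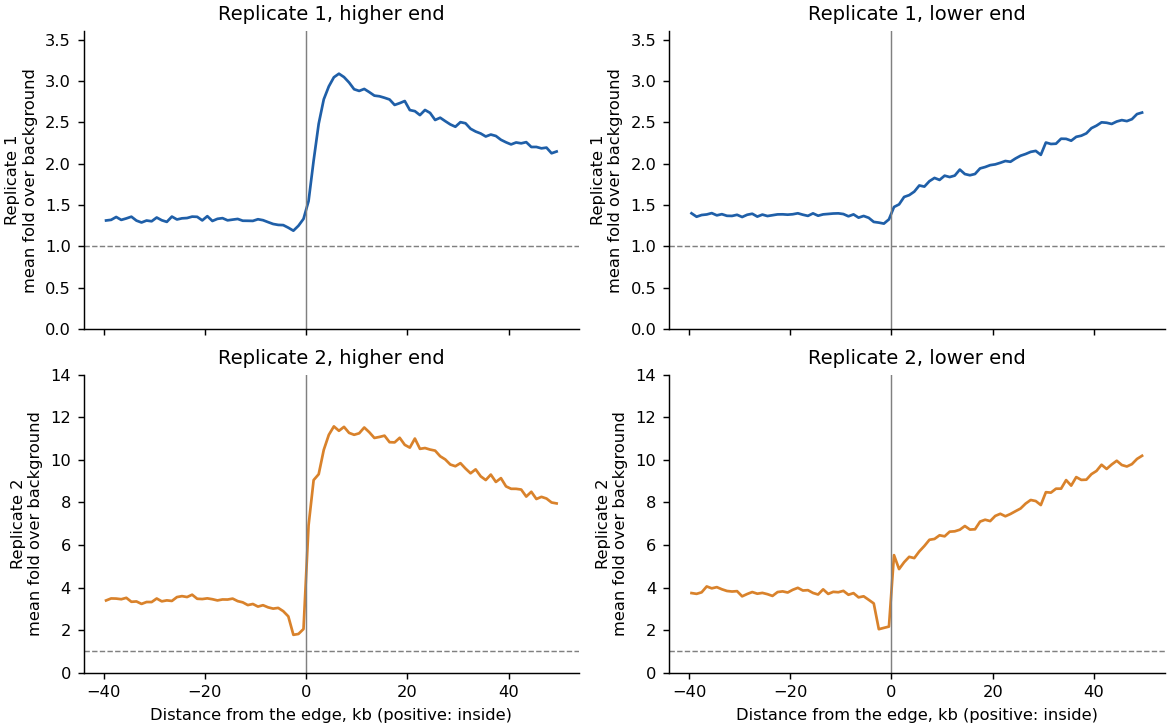
Mean fold over background by distance from the higher (left) and the lower end (right) of 814 broad domains in replicate 1 (top) and replicate 2 (bottom), with positive distances inside the domain. Replicate 1 goes from 1.25-fold just outside the higher end to 3.01-fold at 5 to 10 kb inside, and climbs slowly from the lower end. The notch just outside the edges in replicate 2 follows from the rule, which ends a domain where bins fall below 12 reads.

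Single domains showed the same difference between their ends. The step over an edge was taken as the density of replicate 1 in the 10 kb inside over that in the 10 kb outside. It was 2.15 at the median at the higher end (quartiles 1.38 and 2.98) and 1.19 at the lower end (1 and 1.48), in 808 domains each. A step of at least 1.5 was found at 571 higher ends (70.7%, against 65.5% of all regions of 20 kb or wider) and at 195 lower ends (24.1%, against 27.1%). Of 797 domains with both steps, 639 (80.2%, exact 95% interval 77.2 to 82.9) had the larger one at the higher end, against 76.9% of all regions of 20 kb or wider. These shares lie near those of all such regions, so uneven ends were not particular to the broad domains. In regions of 20 to 49 kb the median steps were 1.87 and 1.26.

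Wider domains fell off over a longer distance. The level of replicate 1 at 5 to 10 kb from the higher end was 2.92-fold in 234 domains of 50 to 59 kb and 3.44-fold in 59 domains of 150 kb or more. At 40 to 50 kb it was 1.85-fold in the first and 2.77-fold in the second, where it was still 2.65-fold at 75 to 100 kb and 2.19-fold at 100 to 150 kb. In 110 domains of 100 to 149 kb it was 2.72-fold at 40 to 50 kb and 1.94-fold at 75 to 100 kb. Widths were chosen in replicate 2, so a level that holds on farther in a wider domain shows how far replicate 1 follows that choice. A difference between the width groups was not tested.

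The highest 5 kb window of replicate 1 lay close to the higher end. Its middle was 10.5 kb from that end at the median (quartiles 5.5 and 24.5 kb). It lay within 10 kb of the higher end in 399 domains and within 10 kb of the lower end in 29. Turning by replicate 2 favours that side, since the libraries had the same higher end in 89.3% of domains. The contrast between the ends thus largely restates that match, and no share for narrower regions is given. Highest windows of the libraries were 4 kb apart at the median and within 5 kb in 465 domains (56.8%), while in 154 they were at least 20 kb apart. Cut into 3 equal stretches, 641 domains were highest in an outer one in replicate 1 and 178 in the middle one, and 534 changed in 1 direction from end to end. Outer stretches outnumber the middle one, and 3 levels can run in 1 direction without any slope. These numbers were not tested, and no share for narrower regions is given. The middle stretch was below both outer ones by 1.5 times or more in 8 domains, and above both by as much in 22.

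The higher sides of domains that lay close together were arranged in all 3 ways. Of 119 neighbouring pairs within 100 kb, 71 had their higher sides pointing the same way in replicate 1, 29 had them pointing away from each other and 19 had them facing each other. Slopes were called in both members of only 10 of these pairs, of which 6 pointed the same way. The numbers were not tested.

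Inside a domain the mark was uneven beyond counting error, and the libraries shared much of that unevenness. The variance of the counts of replicate 1 over 1 kb bins of a domain was 3.08 times their mean at the median (5th and 95th percentiles 1.33 and 6.77), where counting error alone gives 1. The highest 5 kb window was 2.98 times the lowest at the median, and at least 3 times in 406 domains. Counting error alone also sets the highest window above the lowest, more so in wider domains, which hold more windows. Over the 5 kb windows of a domain, Pearson's r between the libraries was 0.75 at the median, with 10th and 90th percentiles of 0.31 and 0.93, and it was positive in 799 domains. Windows of a domain share placeable sequence and base composition, whose part was not tested. None of these measures of unevenness is given for narrower regions.

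Narrow dips interrupted many domains in replicate 1. A dip was a window of 3 kb, at least 5 kb from both edges, with at most 0.5 times the density of the bins up to 10 kb to either side, at an adjusted p below 0.05 in an exact one-sided binomial test over 105956 windows. In the broad domains 820 of 58726 windows passed, 1.40% against 1.77% of all windows, and joined to 507 dips. They lay in 358 domains (43.7%, against 26.5% of all regions of 20 kb or wider, which offer fewer windows each). In regions of 20 to 49 kb alone, 1056 of 47230 windows passed, or 2.24%. Per Mb of full width there were 7.39 dips in broad domains and 7.83 in regions of 20 to 49 kb. The untested 5 kb at each edge is a larger part of the narrower regions, so the share of windows is the closer comparison. By that share dips were rarer in the broad domains than in regions of 20 to 49 kb, a difference that was not tested. One dip was found in 238 domains, 3 or more in 26, and at most 4 in any.

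Within these dips replicate 1 was mostly at or under its background. The density was 6.33 reads per kb at the median in the lowest window against 15 in the bins around it, or 0.945-fold and 2.24-fold over background, and 309 dips (60.9%) were at or below background. These windows were picked as the lowest in replicate 1, so the depth of the dips there is overstated. At the same windows replicate 2 was lower than its surroundings in 459 dips (90.5%), with a median ratio of 0.587, and at or below 0.5 in 172 (33.9%). It remained at 5.05-fold over background at the median, and the rule keeps it from falling below 12 reads over more than 2 bins in a row. In 48 dips replicate 2 was as high as its surroundings or higher. Any ratio below 1 counts here as lower. No such shares are given for the other windows tested or for dips of narrower regions, so these counts stand without a base.

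Dips were short and lay along the whole domain. Their median width was 3 kb, the smallest possible, 475 were up to 5 kb wide and none reached 10 kb. From the higher end, the first, middle and last stretch of equal width held 34.7%, 35.9% and 29.4% of the dips and 30.6%, 38.9% and 30.6% of the windows tested. The 5 kb on either side of a dip differed by less than 1.5 times in 325 dips and by more in 182. A bin without a read in either library lay in 8 of the 507 dips. Such bins were rare in the domains as a whole, 41 or 0.06% of their bins. Windows in which most bins lacked reads in both libraries were not tested, so dips there could not be called. Sequence where reads cannot be placed would lower both libraries, and its part was not tested.

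**Figure D5:**
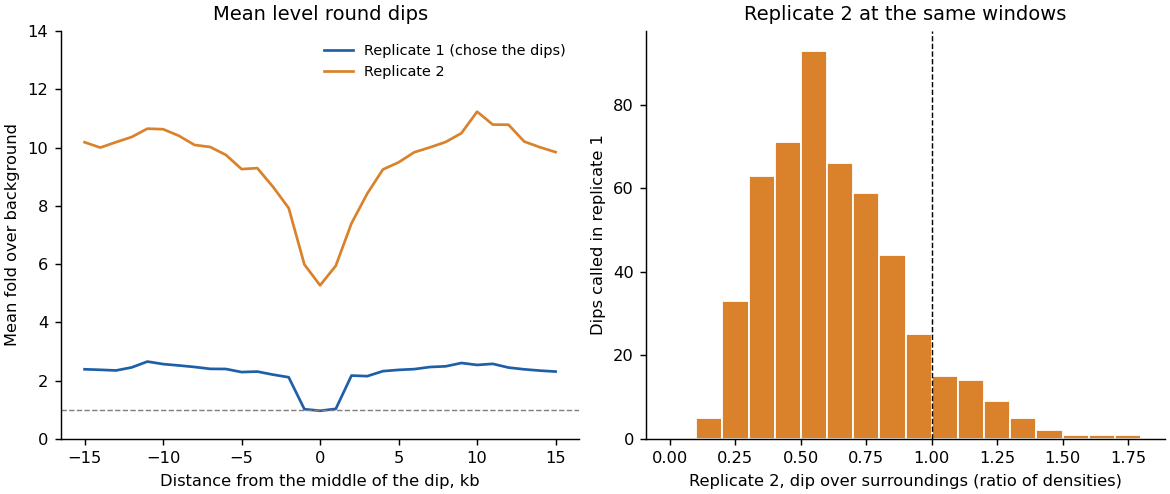
Left, mean fold over background by distance from the middle of the dips called in replicate 1, for both libraries (bins inside the domain, domains rich in reads with 2 placements left out). Right, number of dips by the ratio of replicate 2 in the dip to its surroundings. Replicate 2 has a ratio below 1 in 459 of 507 dips, and the median ratio over all 507 is 0.587. No such share is given for other windows.

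The deepest dips differed in how far replicate 2 followed. In chr7:111408001-111572000, a domain of 164 kb at 1.42-fold, replicate 1 had 0 reads in the 2 counted bins of 111470001 to 111473000, which allows up to 1.5 reads per kb, against 8.60 around them (adjusted p = 3.47e-05, exact binomial test). Replicate 2 was at 14 reads per kb there against 20 around, a ratio of 0.70. In chr11:59211001-59277000, replicate 1 had 1.67 reads per kb from 59251001 to 59254000 against 10.7 around (ratio 0.156, adjusted p = 1.14e-05, exact binomial test), and replicate 2 had 4 against 17.4 (0.230). Both libraries were thus low in the second dip, and in the counted bins of the first replicate 2 was only slightly low. The uncounted bin of that first dip held no read in either library, so the ratio of 0.70 leaves it out. Neither domain was called above its flanks, at ratios of 1.39 and 1.32. In 2 bins of the second dip replicate 1 stood at 0.149-fold and replicate 2 at 0, below background in both. The part of sequence where reads cannot be placed was not tested for either dip. The remaining one lies in the domain on chromosome 11 that is rich in reads with 2 placements, with 13.3 reads per kb from 3100001 to 3103000 against 97.55 around in replicate 1 (ratio 0.137) and 13 against 55.3 in replicate 2.

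Strand, repeated starts and second placements were not used by the rule. Plus-strand reads were 49.99% of the distinct reads inside the domains in replicate 1 and 50.00% in replicate 2, against 50.00% and 49.99% over all autosomal reads. Repeated starts, several reads at 1 position and strand, made up 16.2% of reads inside and 15.2% outside in replicate 1, and 7.60% inside and 5.27% outside in replicate 2. Reads with 2 placements were thinner in the domains than over the autosomes in replicate 1, at 0.692 times, and denser in replicate 2, at 1.94 times.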

How the data were processed

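The deposited lists give 1 signed read position per line, the sign being the strand, with reads of 1 and of 2 placements apart. Bowtie placed the reads on mm8, per the file headers (-e 70 -k 2 -m 2 -n 2 -l 36, best first). No Bowtie version is stated there, and no gene or sequence is given because no mm8 genome was used here. Replicates were numbered in record order. Reads with 1 placement on chromosomes 1 to 19 were reduced to 1 per position and strand and counted by deposited position in bins of 1 kb. Domains were made in replicate 2, as the report states. The members, lists and tests were chosen with earlier results of these data known. Two-sided p-values double the smaller binomial tail, and adjustment is by Benjamini-Hochberg over all regions or windows tested. Tests compare stretches of 1 library, not conditions. The domains named are the 5 widest, the 3 highest and 3 lowest in replicate 1, the 3 largest called slopes each way, the 3 deepest dips, and 2 regions on either side of 50 kb. Rich in reads with 2 placements means 10 times their autosomal density in either library. Functions were tested on simulated Poisson counts over a flat background. These lack the unevenness found inside the domains, so they do not show how often slopes or dips are called falsely under it. Alternatives changed the count, gap, width, reads kept, shift, empty bins, depth, background, flanks and windows. Python 3.11.15, NumPy 2.4.6, SciPy 1.17.1 and matplotlib 3.10.9 were used.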

Additional observations from a re-analysis of the deposited data

Results flagged for a closer look

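Reads with 2 placements entered no test of level, slope or dips, and 5 broad domains held them at 10 times their autosomal density or more in at least 1 library. In chr7:141412001-141503000 the density was 4.62 times in replicate 1 and 18.9 times in replicate 2. In chr8:74196001-74263000 it was 12.2 and 35.6 times, and in chr11:3025001-3114000 it was 60.3 and 81.4 times. In chr15:83203001-83305000 it was 3.78 and 13.1 times, and in chr17:26645001-26695000 it was 3.62 and 10.5 times. The domain on chromosome 11 was also the highest in reads with 1 placement, while the other 4 lay between 1.84-fold and 2.91-fold in replicate 1.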

How the results depend on the processing

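No paired analysis was possible because both libraries belong to 1 group. Settings without the 5 domains rich in reads with 2 placements, and with marked bins kept in the flanks, were added after seeing the data. The second gave 67.9% of domains above their flanks. The first, the shift of 60 bp, empty bins kept, thinning of replicate 1 and flanks of 10 or 50 kb left all values they touch within the interval or spread of the reported value, or within 1.5 times for counts. All reads kept did so too, except that domains with a dip were 54.0%, against 43.7%, and 3 named domains moved, to 3.92-fold (chr16:24306001-24605000), 3.03-fold (chr3:27610001-27904000) and 20.5-fold (chr11:3025001-3114000). The number of domains, 819, rests on the count and the gap: it was 1205 at 10 and 521 at 15 reads per bin, 146 with no gap joined, 1420 with gaps of up to 4 bins, and 366 and 170 at minimum widths of 75 and 100 kb. In the order 10 reads, 15 reads, no gap, gaps of 4, 75 kb and 100 kb, median fold in replicate 1 was 2.03, 2.47, 2.93, 1.96, 2.29 and 2.37, and domains above their flanks were 74.2%, 84.4%, 98.4%, 71.6%, 83.5% and 85.8%. In that order dips numbered 872, 237, 28, 1284, 257 and 146, and domains with a dip were 48.05%, 35.7%, 17.1%, 56.1%, 49.2% and 58.2%. Domains with the same higher end were 91.6% at 15 reads, 81.5% with no gap, 93.4% at 75 kb and 98.2% at 100 kb. The larger step was at the higher end in 76.8% at 10 reads, 70.8% with no gap and 76.7% with gaps of 4. Slopes were called in 16.4% of domains with no gap, 35.9% at 100 kb, 44.2% when the outer 2 of 3 equal stretches were compared, and 56.7% with background subtracted. With the genome mean as background the median fold was 1.97. Windows of 5 kb gave 181 dips in 19.2% of domains, and a ratio of at most 0.7 gave 1064 in 68.9%. Leaving out a library replaces choice or measurement by the same library. Without replicate 2, 24 reads per bin in replicate 1 gave 9 domains, all overlapping broad ones, which are 1.099% of the 819. Over both such settings the number of domains was 9, median fold 5.10 to 8.33, domains above flanks 100%, slopes 0% to 37.5%, dips 1 to 1315, and domains with a dip 11.1% to 80.8%. The cause was not tested for these changes. Replicate 1 limits single dips, whose windows of 3 kb hold few reads at background.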
